A study of Mus musculus with 10 samples.

Results

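Leukocyte adhesion molecules are the 10 genes Vcam1, Icam1, Sele, Selp, Selplg, Itga4, Itgal, Itgb2, Itgb7 and Cd44, and were taken by gene symbol from the array's annotation. Of these 10 genes, 9 had a probe, 8 had a value on at least 1 array and 4 (Vcam1, Selp, Itgb2 and Selplg) could be tested, among 11130 genes with a probe and 4299 genes tested in all. The arrays compared aortic arch RNA of ApoE-/-,MyD88-/- mice, without apolipoprotein E and MyD88 (here double-null), with that of ApoE-/- mice, without apolipoprotein E (here apoE-null), on 10 two-colour slides. Both genotypes lacked apolipoprotein E, whose loss raises plasma cholesterol and gives plaques. The labels state 8 weeks of high fat feeding for 8 of the arrays, with at least 1 array of each mouse pair among them. The design had 5 mouse pairs, 1 mouse of each genotype in each, and each pair was hybridised in both dye orientations. Both mice of pair 1 were female and both mice of pairs 2, 3 and 4 male, while in pair 5 the double-null mouse was male and the apoE-null mouse female. The sources used here give neither strain background nor age. The mouse numbers of pair 1 carry opposite genotypes on its 2 arrays, and the genotype labels were followed.

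Leukocytes leave the blood in steps. Selectins on activated endothelium (Sele and Selp) catch carbohydrate ligands such as the one carried by Selplg, the leukocyte rolls, and its integrins then bind the immunoglobulin-like proteins Icam1 and Vcam1 and stop it. Endothelial cells make Vcam1, Icam1 and Sele when cytokines or Toll-like receptor ligands activate NF-kappaB, a step for which MyD88 is one adaptor, and in arteries Vcam1 is known from the endothelium and smooth muscle over plaques.

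All ratios are log2 of double-null over apoE-null, so a value below 0 means less transcript in the double-null aorta. A pair value is the mean of its 2 dye-swapped arrays and was formed only where both had a value; a gene needed 3 such pairs, and its mean over pairs was tested against 0 with limma, with Benjamini-Hochberg adjustment over all 4299 genes. Between 49.1% and 67.0% of the probes were blank on an array. Myd88 itself, the disrupted gene, averaged -0.90 ± 0.22 (SD, n = 5 pairs, adjusted p = 0.0269) and was below 0 in 5 of 5 pairs. Over all genes, 0.814% passed the threshold of 0.05 (35 of 4299, with 27 or 0.628% higher and 8 or 0.186% lower in double-null aorta), and the median log2 ratio was -0.04. The smooth muscle and endothelial markers of an artery gave values (6 of 9 and 9 of 13 listed genes), but ratios carry no level and cannot show how much of either cell the tissue held.

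No adhesion gene that could be tested passed. Of the 4 tested, 0 passed by limma, against 0.814% of all genes, and 1 (Selplg) had an unadjusted p under 0.05, against 9.47% of all genes. With 4 genes, these counts cannot be told apart from the shares of all genes. All 4 had a mean below 0, against 2506 of 4299 genes tested. Their means lay between -0.45 and -0.23, and the pair values spread widely around them. The median of the 4 means was -0.38, against -0.04 for all genes. The other 6 genes cannot be counted with these: Icam1 had no probe, Sele was blank on all 10 arrays, and Itga4, Itgal, Itgb7 and Cd44 had both arrays of too few pairs. With 1 array taken where its partner was blank, Itga4, Itgal and Cd44 averaged above 0 (0.53, 0.05 and 0.08) and Itgb7 below 0 (-0.09). In whole tissue, fewer cells of a type and less transcript per cell cannot be told apart.

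Among the endothelial ligands, Vcam1, which binds the leukocyte integrin that holds the Itga4 subunit, gave the widest range. Its array values were -1.05 and -1.78 in pair 1, -0.86 and -0.92 in pair 2, -0.19 and -0.47 in pair 3, 0.14 and 0.04 in pair 4, and 0.47 and 0.50 in pair 5 (double-null RNA in channel 1, then in channel 2). Pairs 1, 2 and 3 were thus below 0 on both arrays, and pairs 4 and 5 above 0 on both. The pair values were -1.42, -0.89, -0.33, 0.09 and 0.48 in pairs 1 to 5, and their mean was -0.41 ± 0.76 (SD, n = 5 pairs, 95% interval -0.999 to 0.18, adjusted p = 0.601).

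The spread of Vcam1 was wider between mouse pairs than between the arrays of a pair. Its partner arrays differed by 0.239 on average, against a median of 0.350 for all tested probes. The SD of its pair values, 0.758, was larger than that of 94.2% of tested genes, whose median was 0.302.

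Selp, the selectin that endothelium stores and exposes at once, and that platelets also carry, had array values of -1.70 and -0.44 in pair 1, 0.26 and -0.71 in pair 2, and -0.30 and -0.48 in pair 3. The values were 0.10 and 0.03 in pair 4 and -0.16 and -0.14 in pair 5. Pair 1 was lowest, but its partner arrays differed by 1.27, and in pair 2 they had opposite signs. The pair values were -1.07, -0.23, -0.39, 0.07 and -0.15, below 0 in 4 of 5 pairs, with a mean of -0.35 ± 0.43 (SD, n = 5 pairs, 95% interval -0.74 to 0.03, adjusted p = 0.531). Of the platelet markers, 3 of 7 were tested and all 3 were above 0 on average: Itga2b, the platelet integrin subunit, averaged 0.85 ± 1.43 (SD, n = 5 pairs, adjusted p = 0.578). The platelet chemokine Ppbp averaged 2.25 ± 1.99 (SD, n = 3 pairs, adjusted p = 0.343, unadjusted p = 0.0142) and Pf4, another, 0.66 ± 1.04 (SD, n = 5 pairs, adjusted p = 0.558). From pair 1 to pair 5 the platelet markers had medians of 1.06, 0.53, -0.24, -0.26 and 3.21, and their part in the Selp ratio was not tested. The median of their means was 0.85, and it was 0.26 without pair 5 and 0.0020 in the 3 male pairs. Ppbp had values in pairs 1, 4 and 5 alone and dropped out of both of these fits. Their medians are therefore of Itga2b and Pf4 only, and are not over the same genes as 0.85.

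Sele, the selectin made by activated endothelium, was blank in both orientations of every pair. The sources used here do not say why a cell is blank, so no bound can be set on it. Icam1, which binds the integrins of Itgb2, had no probe in the annotation.

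Of the member genes, 6 have a promoter in the RefSeq table used here (build GRCm38.p6): Sele, Selp, Icam1, Itga4, Itgb7 and Cd44. The NF-kappaB consensus motif, searched on both strands without mismatch, was in 0 of these 6 and in 4.51% of all 32851 promoters of the table, each 300 bases long. At that share, 0 of 6 is no result about these genes. A search without mismatch cannot show that a promoter lacks an NF-kappaB site, and Vcam1 was not searched. The promoter of Selp is shown because it is the only tested member among the 6; it lies at chr1:164115014-164115313 on the plus strand, with the 50 bases after the annotated start in capitals.
Selp: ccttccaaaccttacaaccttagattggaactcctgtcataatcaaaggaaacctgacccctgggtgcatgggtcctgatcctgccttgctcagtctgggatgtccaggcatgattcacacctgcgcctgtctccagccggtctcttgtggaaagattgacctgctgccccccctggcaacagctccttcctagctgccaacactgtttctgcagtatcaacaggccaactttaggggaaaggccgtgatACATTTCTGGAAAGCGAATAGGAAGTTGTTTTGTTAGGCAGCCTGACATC

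Among the leukocyte integrins, only Itgb2, a beta subunit of leukocyte integrins and the partner of Itgal, could be tested. It was read by 2 probes. In the first, the array values were -1.35 and -1.15 in pair 1, -0.19 and 0.49 in pair 2, -0.34 and -0.29 in pair 3, 0.42 and 0.07 in pair 4, and 0.53 and 0.81 in pair 5. In the second they were -0.79 and -1.43 in pair 1, -0.77 and -0.70 in pair 2, -0.46 and -0.58 in pair 3, 0.26 and -0.21 in pair 4, and 0.56 and 0.45 in pair 5. Both probes were below 0 on all arrays of pairs 1 and 3 and above 0 on all arrays of pair 5, and they disagreed in pair 2, where the second probe was below 0 on both arrays and the first on 1, and in pair 4, where the first was above 0 on both arrays and the second on 1.

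Averaged over its probes, Itgb2 had pair values of -1.18, -0.29, -0.42, 0.14 and 0.59 and a mean of -0.23 ± 0.66 (SD, n = 5 pairs, 95% interval -0.76 to 0.29, adjusted p = 0.724). By single probe the means were -0.10 ± 0.73 and -0.37 ± 0.64 (SD, n = 5 pairs), with adjusted p-values of 0.887 and 0.585 in the limma fit of probes. The SD over pairs was larger than in 91.8% of tested genes.

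Itga4, which pairs with the integrin beta-1 or Itgb7 subunit to bind Vcam1, had values on 6 arrays and both arrays of pair 4 alone. They were 0.71 in pair 1, 0.91 in pair 2, 0.05 in pair 3, -0.18 and 1.27 in pair 4, and 0.43 in pair 5. With 1 array taken where its partner was blank, all 5 pair values were above 0, from 0.05 to 0.91, with a mean of 0.53 ± 0.32 (SD, n = 5 pairs). This mean did not pass in the limma fit of such values (adjusted p = 0.255, unadjusted p = 0.00719). A dye effect does not cancel in a value from 1 array, and the only full pair had arrays of opposite sign.

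Itgal, the alpha subunit that pairs with Itgb2 to bind Icam1, and Itgb7, the partner of Itga4 in gut homing, had values on the 5 arrays that held double-null RNA in channel 1 and on no array of the other orientation. Itgal had 0.34, -0.10, -0.23, -0.14 and 0.36 in pairs 1 to 5, a mean of 0.05 ± 0.28 (SD, n = 5 arrays). Itgb7 had 0.17, -0.34, 0.0024, 0.21 and -0.48, a mean of -0.09 ± 0.31 (SD, n = 5 arrays). Both genes lay on either side of 0, and neither had the low value of pair 1 that Itgb2 had. With 1 dye orientation, genotype and dye cannot be told apart for them.

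Selplg, the leukocyte ligand of the selectins, had the lowest mean of the tested genes. Its array values were -1.21 and -1.52 in pair 1, -0.30 and -0.31 in pair 2, -0.75 and 0.20 in pair 3, -0.13 and -0.35 in pair 4, and 0.09 and -0.18 in pair 5. Pair 1 stood below all others, while pairs 3 and 5 had arrays of both signs. The pair values were -1.36, -0.30, -0.27, -0.24 and -0.05, below 0 in 5 of 5 pairs, with a mean of -0.45 ± 0.52 (SD, n = 5 pairs, 95% interval -0.88 to -0.01, adjusted p = 0.520, unadjusted p = 0.0470). Of the 3192 genes with 5 pair values, 6.42% were below 0 in every pair.

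Cd44, the hyaluronan receptor that leukocytes and vessel wall cells share, had values on 6 arrays. They were -0.96 in pair 1, 0.06 and -0.28 in pair 3, 0.48 in pair 4, and 0.86 and 0.92 in pair 5, with none in pair 2. Among its 4 pairs Cd44 was lowest in pair 1 and highest in pair 5, as Vcam1 and Itgb2 were. The values of pairs 1 and 4 each come from 1 array, in which a dye effect does not cancel. Cd44 had both arrays in pairs 3 and 5 alone, with pair values of -0.11 and 0.89. Its mean with single arrays admitted was 0.08 ± 0.81 (SD, n = 4 pairs, adjusted p = 0.944 in the limma fit).

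**Figure D1:**
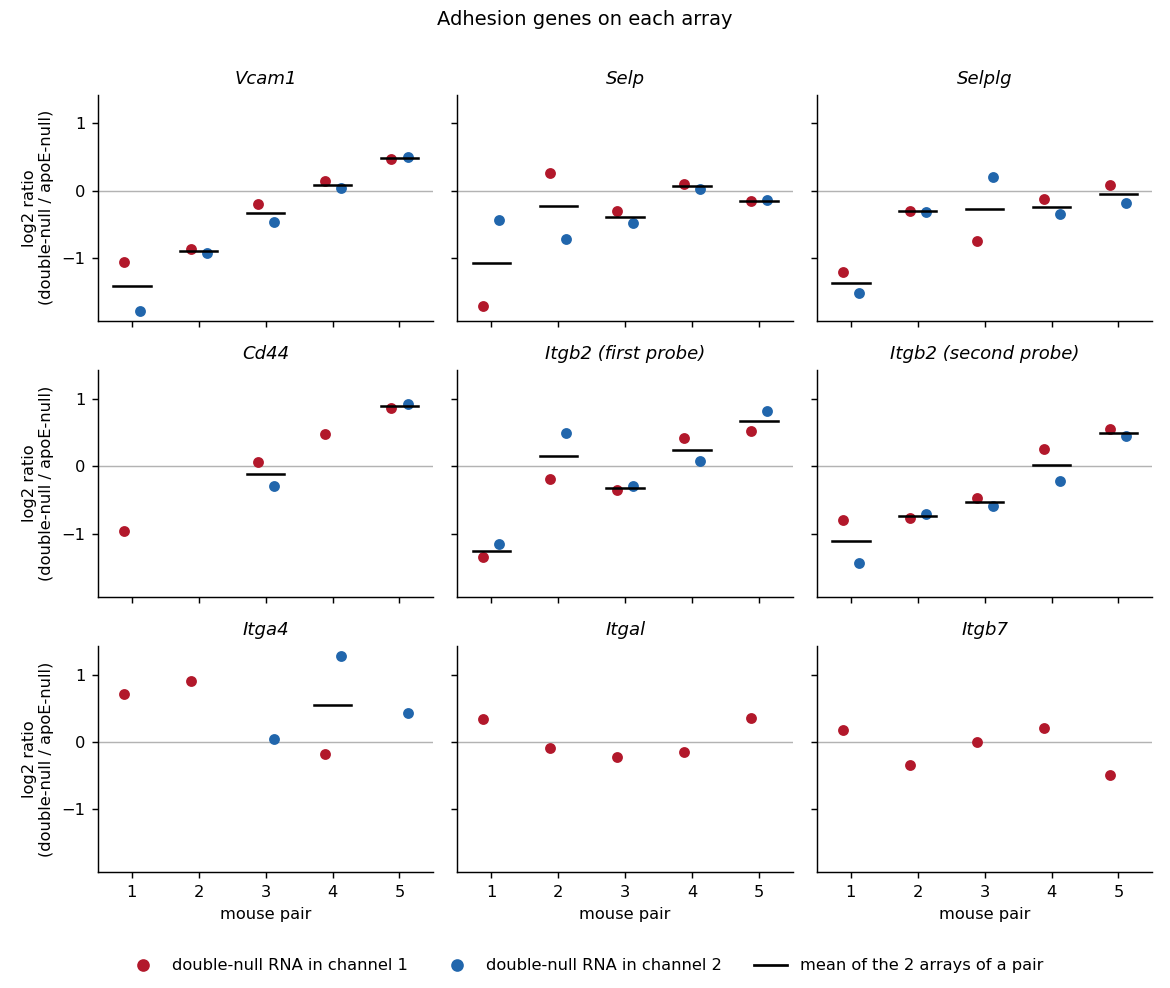
Log2 ratio of double-null over apoE-null (vertical) of each measured adhesion gene by mouse pair (horizontal); points are arrays, red with double-null RNA in channel 1 and blue in channel 2, and bars are the means of pairs with both arrays. Vcam1 spans -1.42 to 0.48 over pairs with partner arrays close together, and Itgal and Itgb7 have points of 1 colour alone.

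**Figure D2:**
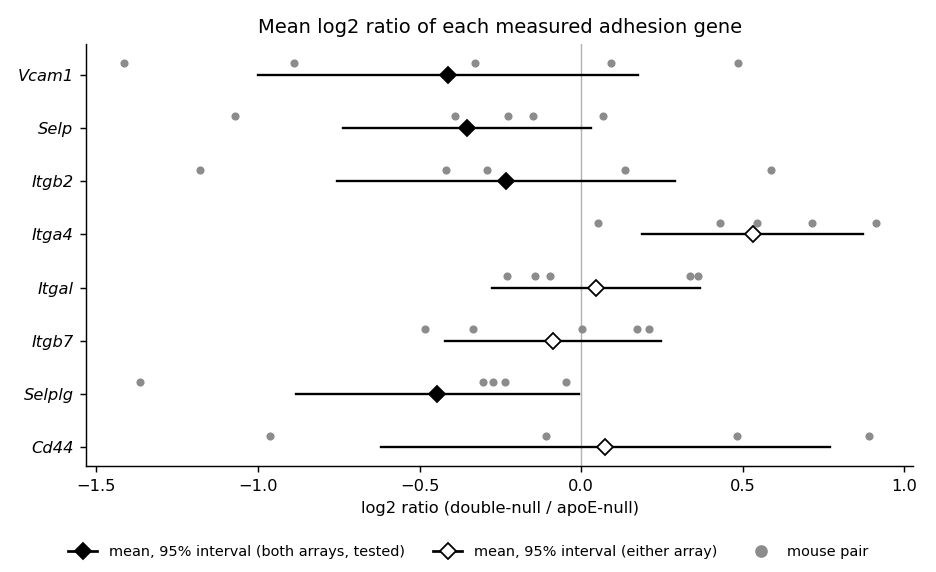
Mean log2 ratio (diamonds) with its 95% interval from limma and the pair values (grey points); filled diamonds are genes tested on pairs with both arrays, and open diamonds use 1 array where its partner was blank. The filled means lie between -0.45 and -0.23, and no gene passed after adjustment.

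The means rested on pair 1 in part. Without it the mean was -0.16 for Vcam1, -0.17 for Selp, 0.0029 for Itgb2 and -0.22 for Selplg, and without pair 5, the pair of unlike sex, it was -0.64 for Vcam1 and -0.44 for Itgb2. In the 3 male pairs alone the means were -0.38 for Vcam1, -0.18 for Selp, -0.19 for Itgb2 and -0.27 for Selplg. None of these fits brought an adhesion gene past the threshold.

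In all 4 tested genes the female pair had a lower value than the mean of the male pairs. Selplg was at -1.36 in the female pair and averaged -0.27 in the male pairs, a difference of -1.09 (limma, adjusted p = 0.141). The differences were -1.04 for Vcam1 (adjusted p = 0.264), -0.99 for Itgb2 (adjusted p = 0.216) and -0.89 for Selp (adjusted p = 0.242). None passed, against 0.21% of the 3336 genes with values in these 4 pairs. At an unadjusted p under 0.05 all 4 were lower, against 7.64% of these genes lower and 16.2% in either direction. The spread could be estimated from the male pairs alone, and all 4 genes rest on the same female pair. These values therefore describe 1 pair, and neither females nor 4 separate results. Pair 1 was also the lowest of the 5 in 30.1% of all genes with 5 pair values.

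The test of an endothelial against a leukocyte gene of adhesion could not pass with 5 pairs, so it shows neither a difference nor likeness. Vcam1 minus Itgb2 averaged -0.18 ± 0.26 (SD, n = 5 pairs, exact sign-flip permutation test, two-sided, p = 0.1875), and Selp minus Selplg averaged 0.09 ± 0.20 (SD, n = 5 pairs, exact sign-flip permutation test, two-sided, p = 0.4375). All 6 pairings of the 4 genes were compared, within a class and across classes, and the smallest adjusted p was 0.5625. With 5 pairs this exact test cannot go below 0.0625, which is above the threshold, so no pairing could have passed.

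Pair medians of leukocyte and macrophage markers were lowest in pair 1 and highest in pair 5, as Vcam1, Itgb2 and Selplg were. Of all genes with 5 pair values, 6.48% had this order. In pair 5 the mice differed in sex as well as genotype, and these cannot be told apart there. The pan-leukocyte markers (6 of 8 tested, 5 of them below 0) had pair medians of -0.99, -0.32, -0.62, -0.21 and 0.38 in pairs 1 to 5, and the macrophage markers (11 of 12 tested, all 11 below 0) had -1.05, -0.45, -0.68, -0.49 and 0.11. The endothelial markers (9 of 13 tested, 5 below 0) had 0.10, -0.0025, 0.03, 0.12 and -0.02. Over the alternative settings the median of the endothelial markers ran from -0.08 to 0.21.

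By gene, the macrophage lysozyme Lyz2 averaged -0.81 ± 0.54 and the receptor Csf1r -0.17 ± 0.56 (SD, n = 5 pairs), and the complement subunit C1qa -0.87 ± 0.41 (SD, n = 3 pairs). The leukocyte phosphatase Ptprc averaged -0.97 ± 1.04 (SD, n = 4 pairs) and the surface glycoprotein Cd52 -0.66 ± 0.61 (SD, n = 5 pairs). None of these markers passed in the limma fit. An unadjusted p under 0.05 was found for 7 of 11 macrophage, 3 of 6 pan-leukocyte and 0 of 9 endothelial markers, against 9.47% of all genes. The medians of their means were -0.46, -0.38 and -0.05, beside -0.38 for the 4 tested adhesion genes. The endothelial junction gene Cldn5 averaged 0.28 ± 0.22 and the co-receptor Eng -0.19 ± 0.39 (SD, n = 5 pairs). Cdh5, Flt1 and Nos3 were on the array without enough values to be tested, and Vwf had no probe.

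The root mean square difference from the marker medians over the 5 pairs was 0.37 to the pan-leukocyte and 0.83 to the endothelial markers for Vcam1. It was 0.29 and 0.57 for Selp, 0.22 and 0.68 for Itgb2, and 0.30 and 0.70 for Selplg. The endothelial ligands, too, were therefore nearer to the pan-leukocyte median than to the endothelial one. They were also nearer to the macrophage (0.43 for Vcam1 and 0.32 for Selp), smooth muscle (0.67 and 0.42) and fibroblast (0.74 and 0.39) medians. The adipocyte median was farther (1.61 and 1.37). The share of all genes nearer to the pan-leukocyte median was not computed, so these distances name no cell source. The adipocyte markers (5 of 8 tested) had pair medians of 1.80, -0.03, -0.26, 1.09 and -0.43. The part of tissue makeup in the adhesion ratios was not tested.

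**Figure D3:**
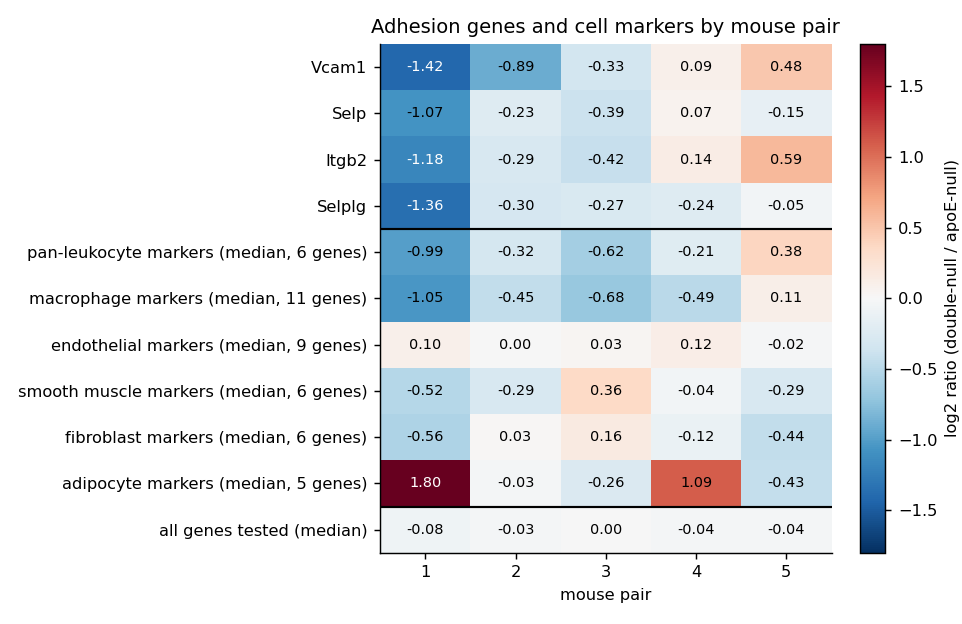
Log2 ratio of double-null over apoE-null (colour and printed value) in each mouse pair (columns) for the 4 tested adhesion genes, for the medians of marker lists and for the median of all genes (rows). In pair 1 the adhesion genes read -1.42 to -1.07, beside -0.99 for pan-leukocyte and 0.10 for endothelial markers.

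The genes whose pair values lay nearest to those of Vcam1, among 3191 other genes with 5 pair values, were Lgmn, Gusb and Lgals3. Lgmn, a lysosomal protease, lay at a root mean square difference of 0.184, Gusb, a lysosomal glucuronidase, at 0.186, and Lgals3, a galectin abundant in macrophages, at 0.196, against a median of 0.812 over all these genes. Itgb2 stood at rank 15, Selplg at rank 41 and Selp at rank 83 in this order. The nearest to Itgb2 were the lysosomal protease Ctsd (0.109), the lysosomal membrane protein Gpr137b (0.132) and the cytokine receptor subunit Csf2rb2 (0.141), against a median of 0.682. These are distances over 5 pairs of the same arrays.

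**Figure D4:**
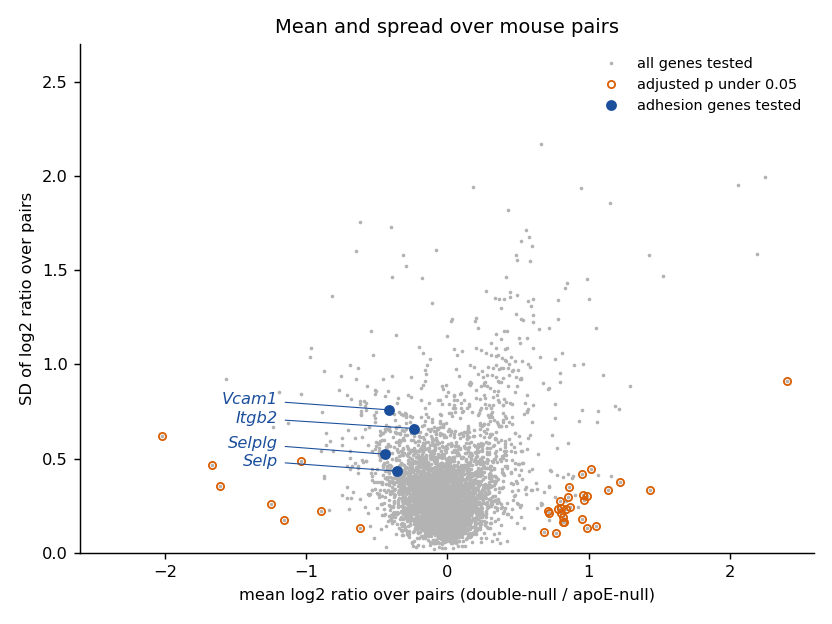
Mean log2 ratio of double-null over apoE-null (horizontal) and SD over mouse pairs (vertical) of the 4299 tested genes (grey), with those past an adjusted p of 0.05 circled and the adhesion genes in blue. The adhesion genes have SDs of 0.43 to 0.76, above the median of 0.302 for all genes, at means of -0.45 to -0.23.

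No tested gene of the wider adhesion pathway passed, and the counts under either threshold were near the shares of all genes. Most of the listed genes were not tested. In 6 lists with 113 entries, 44 genes were tested by limma, 0 passed (against 0.814% of all genes), 4 had an unadjusted p under 0.05 (against 9.47% of all genes) and 31 were below 0 (against 2506 of 4299 genes), with a median of -0.10. The medians of 4 of these lists have no settled sign: over the alternative settings they ran from -0.07 to 0.04 for endothelial adhesion and junction molecules, -0.15 to 0.13 for leukocyte integrins and receptors, -0.29 to 0.06 for extracellular ligands, and -0.21 to 0.0043 for NF-kappaB. In the list of other endothelial adhesion and junction molecules (9 of 19 tested, median -0.06) the highest was Icam2, a constitutive integrin ligand, at 0.13 ± 0.25, and the lowest Sdc4, a heparan sulfate proteoglycan, at -0.22 ± 0.54 (SD, n = 5 pairs). Pair medians of that list lay between -0.17 and 0.16, with no low value in pair 1.

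In the list of other leukocyte integrins and receptors (8 of 25 tested, median -0.04), Cd47, which restrains engulfment by macrophages, was below 0 in 5 of 5 pairs at -0.30 ± 0.20 (SD, n = 5 pairs, adjusted p = 0.486). The highest was Itga2b, given above with the platelets. In the list of integrin activation and cytoskeletal linkers (11 of 26 tested, median -0.11), the actin bundler of leukocytes Lcp1, also among the pan-leukocyte markers, was at -0.48 ± 0.57 and the integrin activator Apbb1ip at 0.28 ± 0.53 (SD, n = 5 pairs, adjusted p = 0.514 and 0.626).

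The lists of ligands and of glycosylation held few tested genes. In the selectin ligand glycosylation list (3 of 11 tested) the galactosyltransferase B4galt1 was at -0.20 ± 0.39 and the sialyltransferase St3gal4 at -0.04 ± 0.19 (SD, n = 5 pairs). In the list of extracellular ligands (5 of 12 tested) Has1, a hyaluronan synthase and so a source of the Cd44 ligand, was above 0 in all 4 of its pairs at 0.55 ± 0.35 (SD, n = 4 pairs, adjusted p = 0.305). The Has1 ratio also differed between dye orientations (limma, adjusted p = 8.95e-06), as did 4.82% of all genes and no tested adhesion gene. The hyaluronan-binding proteoglycan Vcan was at -0.32 ± 0.53 (SD, n = 5 pairs).

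In the NF-kappaB list (8 of 20 tested, 6 below 0, median -0.13), Relb, a subunit of the noncanonical pathway, was below 0 in 5 of 5 pairs at -0.31 ± 0.16 (SD, n = 5 pairs, adjusted p = 0.440). Tab1, an adaptor of the kinase that links Toll-like receptors to NF-kappaB, was lowest at -0.34 ± 0.13 (SD, n = 3 pairs, adjusted p = 0.531), and Tab2 highest at 0.04 ± 0.26 (SD, n = 4 pairs).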

How the data were processed

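T7-amplified, chemically labelled RNA of 1 genotype was put in each channel, and per the labels GenePix Pro 3.0 quantified the slides before GeneSpring was used. The deposited values are log2 ratios that the authors title apoE-null over double-null on every array; the sign was turned here. Normalization, signal over background and the cause of blank cells: not given in the sources used here. The number of mouse pairs, 5, limits the precision, since the 10 arrays are dye swaps of these pairs. Array medians lay within 0.1 of 0, so the arrays were not centred again. They were not scaled to equal spread in the main fit either. Gene names come from the platform's annotation and were updated through Entrez identifiers (12009 of 12143 single symbols matched); a gene's probes were averaged. Pair means were tested with limma 3.58.1 (two-sided) in R 4.3.3, after a check on simulated data; a dye effect on the difference of the orientations passed for 4.82% of genes and no tested adhesion gene. Mice are numbered separately in the labels, and the p-values rest on the spread over pairs. The adhesion genes, gene lists and marker lists were chosen with earlier results of these data known. By rule, all 10 adhesion genes and Myd88 are named, of each list the genes with the smallest p, highest and lowest mean, and the 3 genes nearest in pattern to Vcam1 and to Itgb2; 1 pan-leukocyte marker is not reported here. Alternatives are given in the closing section.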

Additional observations from a re-analysis of the deposited data

Results flagged for a closer look

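Selplg in pair 1, at -1.36, lay far below the other 4 pairs, whose values ran between -0.30 and -0.05. The gap to the nearest pair was 0.804 of the whole range of the 5 values. It was 1 of 24 groups of values looked at, and chance marks about 1 in 20.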

How the results depend on the processing

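No adhesion gene passed in any of the 20 alternatives to the limma fit, in either direction. Vcam1, Selp and Selplg stayed below 0 in all 19 alternatives that gave them a value. Itgb2 stayed below 0 in 19 of 20, the exception being the fit without pair 1. Several of these settings, such as no empirical Bayes and values in at least 2 pairs, changed only the spread or a filter. They returned the main means unchanged and so could not change a sign. Leaving out 1 pair in turn gave means from -0.64 to -0.16 for Vcam1, -0.46 to -0.17 for Selp, -0.44 to 0.0029 for Itgb2 and -0.55 to -0.22 for Selplg. With arrays scaled to equal spread, the means were nearer to 0, at -0.30 for Vcam1, -0.30 for Selp, -0.39 for Selplg and -0.15 for Itgb2. The SD of Selplg was then 0.37, against 0.52 in the main fit. The median of the leukocyte genes, -0.34 from Itgb2 and Selplg, was -0.02 where single arrays admitted Itga4, Itgal, Itgb7 and Cd44.

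The counts over all genes moved between settings, and the cause was not tested. The count of adhesion genes stayed at 0, but with 4 tested in the main fit it had little room to move. Without pair 3, without pair 4 and without empirical Bayes no gene passed at all, so those settings could not call an adhesion gene. Of 27 genes higher and 8 lower, leaving out 1 pair left 0 to 7 higher and 0 to 10 lower. The 3 male pairs alone gave 15 and 18, arrays with the pair as a random block 42 and 21, arrays with double-null RNA in channel 1 alone 9 and 20, and those in channel 2 alone 90 and 9. Values from either array gave 4 and 3, values in at least 2 pairs 19 and 5, no empirical Bayes 0 and 0, a fit without probes with a dye effect 0 and 3, and a threshold of 0.1 45 and 17. Blank cells kept Sele, Itga4, Itgal, Itgb7 and Cd44 out of the test, and Icam1 had no probe.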

Other observations

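Markers of other blood cells gave few values. Of the T cell markers 1 of 11 was tested, Cd4, at 0.07 ± 0.17 (SD, n = 5 pairs), and of the B cell markers 2 of 6, Cd22 at -0.43 ± 0.56 (SD, n = 5 pairs) and Cd79b at 0.28 ± 0.21 (SD, n = 4 pairs). Of the neutrophil markers 4 of 9 were tested and all 4 were above 0, with a median of 0.21; S100a8, an alarmin subunit, was at 0.05 ± 0.50 (SD, n = 5 pairs). S100a9, its partner, was at 0.34 ± 0.60 and the granule protein Ngp at 0.24 ± 0.22 (SD, n = 3 pairs). None of these genes passed in the limma fit over all genes. Fibroblast markers (6 of 6 tested) had pair medians of -0.56, 0.03, 0.16, -0.12 and -0.44, and smooth muscle markers (6 of 9) had -0.52, -0.29, 0.36, -0.04 and -0.29, in pairs 1 to 5. The matrix proteoglycan Lum averaged -0.69 ± 0.44 and the receptor Pdgfra 0.03 ± 0.31 (SD, n = 5 pairs). The smooth muscle genes Smtn and Tagln averaged -0.23 ± 0.28 and 0.07 ± 0.27 (SD, n = 5 pairs), and Lmod1 -0.32 ± 0.44 (SD, n = 4 pairs). The adipokines Adipoq and Retn averaged 0.65 ± 1.19 and 0.20 ± 0.37 (SD, n = 5 pairs).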
